A study of Mus musculus with 4 samples.

Results

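Cells that carried RNA of Six3 and Fezf1 were taken from single-cell libraries of the mouse telencephalic midline at E11.5. A member was a cell barcode with 1000 or more genes, at most 10% of its UMIs (unique molecular identifiers, 1 for each captured RNA molecule) in mitochondrial genes, and at least 2 summed UMIs of Six3 and Fezf1. This rule found 1772 cells among 14555 kept E11.5 barcodes, 614 of 7593 in the gof library and 1158 of 6962 in the control library. The 4 libraries of the study, from E11.5 and E14.5, held 30362 barcodes, of which 27196 were kept. The members were selected by the levels of Six3 and Fezf1, so these levels are described and not read as results. Other kept cells here means the kept barcodes of the same library that were not members.

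The gof library came from Lmx1aCre::Ai9::b-cat gof embryos and the control library from Lmx1aCre::Ai9 embryos. Both genotypes carried Lmx1aCre, in which the Lmx1a gene drives Cre recombinase, and Ai9, a reporter allele from which Cre switches on the red protein tdTomato. The beta-catenin gain-of-function allele was thus the labelled difference, and by the study's title it was used for constitutive canonical Wnt signalling in hem progenitors. Each E11.5 library pooled tissue around the cortical hem, from both hemispheres of 5 male embryos, and reached the droplet controller as dissociated cells. Sample titles write the age as E11 and the series text as E11.5. With 1 pool for each genotype there were no replicates, so every comparison below is between libraries, has no replicate check and carries no p-value. Differences between pools, dissections and genotypes cannot be told apart.

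Six3 and Fezf1 are transcription factors of the early forebrain. Six3 is needed for the anterior neural plate to form forebrain and eye, and represses Wnt genes there, and Fezf1 is a zinc-finger repressor of the anterior forebrain and the olfactory system. The rostral midline of the telencephalon, the commissural plate, secretes FGF proteins of the Fgf8 family, while the cortical hem at the caudomedial edge is a source of Wnts and BMPs. Several borders of the pallium, the hem among them, give rise to Cajal-Retzius neurons. On GRCm38, by GENCODE M21, Six3 (ENSMUSG00000038805) lies on chromosome 17 from 85613608 to 85629302 on the plus strand and Fezf1 (ENSMUSG00000029697) on chromosome 6 from 23245044 to 23248362 on the minus strand, and both are protein-coding.

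The gof library held 59594082 UMIs in 8677 barcodes and the control library 78732126 UMIs in 7578 barcodes. The members gave 6304716 UMIs in gof and 16265412 in control, with a median of 7831.5 and 10477.5 UMIs for each cell. Other kept cells were shallower, at 5765 UMIs in gof and 8126.5 in control. The 2 libraries shared 18 barcode sequences, and no sequence was a member in both libraries. Levels are summed UMIs scaled to CPM, the count out of 1000000 UMIs, with exact Poisson 95% intervals. Shares of cells have exact Clopper-Pearson 95% intervals, except that a count of 0 cells is given with the share that 3 cells would make. Intervals and limits cover counting error only. Ctnnb1, which encodes beta-catenin, was at 273 CPM in gof members and 306 CPM in control members. These are counts of the transcript's 3' end and do not check the allele.

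Members made up a smaller share of the gof library. They were 8.09% (95% interval 7.48 to 8.72) of kept barcodes in gof and 16.6% (15.8 to 17.5) in control, a log2 ratio of -1.04. Because the rule asks for a number of UMIs, the share grew with depth in both libraries, so the libraries were also compared at like depth. Below 5000 UMIs the share was 4.89% in gof and 9.35% in control, between 5000 and 10000 it was 7.73% and 13.9%, and between 10000 and 15000 it was 11.4% and 18.0%. From 15000 to 20000 UMIs it was 16.7% in gof and 22.3% in control, and from 20000 on 25.7% (20.5 to 31.5) and 31.7% (28.3 to 35.1), where the intervals overlapped. The gof share was the lower value in all 5 depth classes. After every barcode had been thinned to 3000 UMIs, which left out 658 gof and 104 control barcodes, 191 of 6935 gof barcodes (2.75%, 2.38 to 3.17) and 284 of 6858 control barcodes (4.14%, 3.68 to 4.64) met the rule, a log2 ratio of -0.59.

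**Figure D1:**
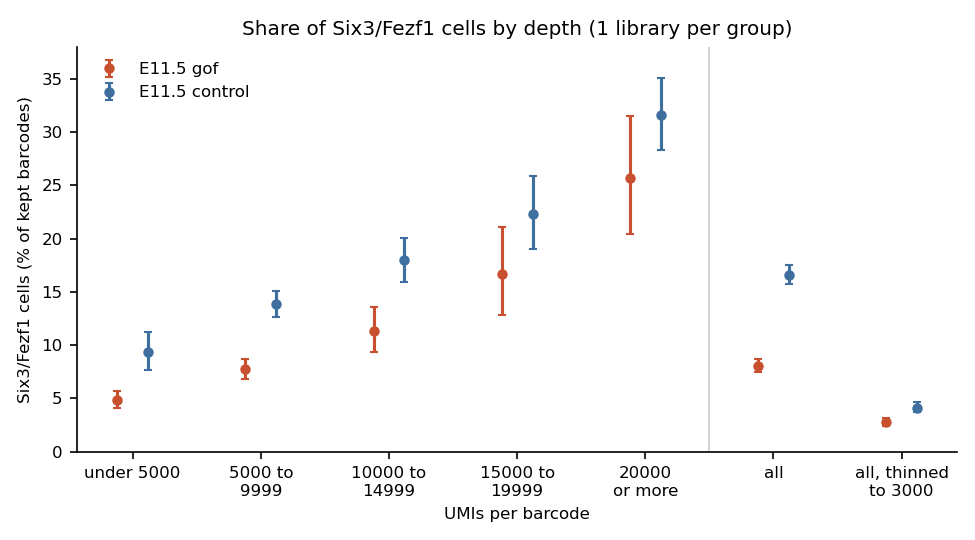
Percent of kept E11.5 barcodes that met the Six3 and Fezf1 rule in each class of UMIs for a barcode, and, right of the line, of all kept barcodes before and after thinning, for the gof and control libraries, with exact Clopper-Pearson 95% intervals as bars. The gof share is below the control share in each class, and the intervals overlap from 15000 UMIs on.

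The libraries also differed in what else they held. Barcodes with at least 10 UMIs of endothelial, mesenchymal, pericyte and macrophage genes were 20.6% of kept barcodes in gof and 12.9% in control. With these and erythroid barcodes taken out, the members' share was 9.79% in gof and 17.8% in control, and after thinning 3.54% (3.06 to 4.08) and 4.72% (4.19 to 5.30), a log2 ratio of -0.41. Free RNA was read from cells that should lack both genes: among erythroid barcodes, 1 of 180 in gof (0.556%, median 11952 UMIs) and 0 of 144 in control (which allows up to 2.08%, median 13052 UMIs) met the rule. Of the barcodes rich in endothelial, mesenchymal, pericyte and macrophage genes, 40 of 1563 in gof (2.56%) and 102 of 897 in control (11.4%) met it. Below 10000 UMIs that share was 0.506% in gof and 0.626% in control. From 20000 UMIs on it was 18 of 87 in gof (20.7%, 12.7 to 30.7) and 78 of 188 in control (41.5%, 34.4 to 48.9). All kept barcodes of that depth had 25.7% and 31.7%. Over all depths, the members among these rich barcodes had a median of 17759 UMIs in gof and 28391.5 in control, and made up 6.51% of gof and 8.81% of control members. Whether these deep barcodes held more than 1 cell was not tested.

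The members carried few UMIs of the genes that chose them. Exactly 2 UMIs, the least the rule allows, were found in 346 gof members (56.4%) and 518 control members (44.7%), while 898 gof and 1005 control barcodes had 1 UMI and stayed outside. At least 5 UMIs were found in 55 gof (8.96%) and 210 control members (18.1%), and the highest sum was 10 in gof and 15 in control. Both genes were read in 249 gof (40.6%) and 481 control members (41.5%), Six3 alone in 308 (50.2%) and 634 (54.7%), and Fezf1 alone in 57 (9.28%) and 43 (3.71%). Six3 stood at 203 CPM in gof members and 187 CPM in control members, and Fezf1 at 72.8 and 47.8 CPM.

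The 3 other marker genes were each at a higher level in members than in other kept cells of both libraries. Dlk1, an imprinted transmembrane protein related to Notch ligands, was at 85.3 CPM in members and 26.4 CPM in other cells of the gof library, and at 69.5 and 20.9 CPM in the control library. Mecom, a zinc-finger transcription factor, was at 117 CPM in members and 50.8 CPM in other cells of gof, and at 168 and 64.9 CPM in control. Epcam, an epithelial adhesion molecule, was at 38.2 CPM in members and 16.8 CPM in other cells of gof, and at 37.6 and 19.1 CPM in control. Among the 1-UMI barcodes just outside the rule Dlk1 was at 54.3 CPM in gof against 44.4 CPM in control, between members and the barcodes without a UMI of either gene (21.8 and 15.6 CPM). The 14 hypothalamic and optic genes summed to 41.1 CPM in gof and 40.7 CPM in control members, and to 50.5 and 32.2 CPM in other kept cells. Several were at low levels in members: Six6 was at 1.27 CPM in gof and 1.97 in control, Vax1 at 3.81 and 3.93, Rax at 1.74 and 1.97, Nkx2-1 at 4.28 and 1.48 and Shh at 0.793 and 3.26. Most were lower still in barcodes without a UMI of Six3 or Fezf1. There Six6 was at 0.0919 CPM in gof and 0.0809 in control, Rax at 0.896 and 0.607 and Nkx2-1 at 0.643 and 0.162, but Shh at 2.34 and 2.47. Foxd1, a forkhead gene of the same list, was at 19.8 CPM in gof against 18.7 CPM in control members. Hesx1, a gene of the rostral forebrain list, had no UMI in members of either library. The placodal gene Foxe1 had 1 UMI in gof and 0 in control members. RNA levels do not give the position of a cell, so the rostral origin in the working name could not be checked, and the cells are called Six3/Fezf1 cells or members.

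Six3/Fezf1 cells were marked by FGF genes. A gene was called higher or lower where the CPM + 1 of both sides differed by at least 1.5-fold with separate 95% intervals, among genes of at least 20 CPM on either side. A gene that passed this floor on a single side could be called only as higher on that side. Log2 ratios use the same CPM + 1, which understates differences of weakly expressed genes. By this rule 108 of 5688 genes (1.9%) were higher and 84 (1.48%) lower in members than in other kept cells of both libraries. Taken singly, the gof library had 280 of 6032 genes (4.64%) higher and 183 (3.03%) lower, and the control library 133 of 6009 (2.21%) and 110 (1.83%). Fgf17, a ligand of the Fgf8 subfamily, was at 233 CPM (221 to 245) in members and 34.2 CPM in other cells of gof, and at 271 (263 to 279) and 44.3 CPM in control. Fgf8, the main organizing ligand of the rostral midline, was at 115 CPM (107 to 124) and 19.03 CPM in gof, and at 117 (111 to 122) and 19.3 CPM in control. Of 13 FGF ligands and targets measured, 6 were higher and 0 lower in members of both libraries, with a median log2 ratio of 0.51 in gof and 0.36 in control, where the median of all genes was 0.12 and 0.07.

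The other FGF genes that were higher in members are feedback genes of the pathway. Spry1, which encodes a Sprouty inhibitor of receptor tyrosine kinase signalling, was at 95.2 CPM in members and 34.1 CPM in other cells of gof, and at 76.6 and 31.6 CPM in control. Its relative Spry2 was at 216 and 126 CPM in gof, and at 94.1 and 53.3 CPM in control. Dusp6, a phosphatase that inactivates ERK, was at 55.5 CPM in members and 33.2 CPM in other cells of gof, and at 30.1 and 16.9 CPM in control. Il17rd, an inhibitor of FGF receptor signalling also called Sef, was at 45.5 and 22.2 CPM in gof, and at 58.7 and 24.3 CPM in control. The receptor genes Fgfr1 (58.1 CPM in members and 40.5 CPM in other cells of gof, 52.9 and 41.0 CPM in control) and Fgfr2 (130 and 105 CPM in gof, 138 and 114 CPM in control) were not called.

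Several genes of the rostral forebrain list were higher in members as well, though Otx2 is also on the diencephalic list. Otx2, a homeobox factor of forebrain and midbrain, was at 188 CPM in members and 79.6 CPM in other cells of gof, and at 168 and 72.7 CPM in control. The zinc-finger genes Zic4 and Zic5 and the nuclear receptor gene Nr2f2 were also called. Of 16 rostral forebrain factors 1 was lower in both libraries, Lhx2, a selector gene of cortical identity, at 90.1 CPM in members and 199 CPM in other cells of gof, and at 160 and 310 CPM in control. Of 17 medial pallial genes, 0 were higher and 3 lower in both libraries, Lhx2 together with Lhx9 and Emx1. Emx1, a homeobox gene of the dorsal telencephalon, was at 15.1 CPM in members and 39.2 CPM in other cells of gof, and at 34.5 and 70.0 CPM in control.

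Several choroid plexus and hem genes were higher in members taken as a whole, though unevenly among them. All 5 choroid plexus genes that could be tested were higher in both libraries, with a median log2 ratio of 1.81 in gof and 1.44 in control. Ttr, the thyroid hormone carrier of choroid plexus epithelium, was at 374 CPM in members and 65.7 CPM in other cells of gof, and at 499 and 164 CPM in control. Its UMIs lay in few cells, 78 of 614 gof and 215 of 1158 control members, and 1 gof member held 422 of the 2359 UMIs. Trpm3, a cation channel gene, was at 119 CPM in members and 32.8 CPM in other cells of gof, and at 168 and 61.6 CPM in control, and Sostdc1, a secreted BMP and Wnt antagonist, at 60.6 and 16.5 CPM in gof and 56.7 and 20.2 CPM in control. Of 10 hem genes, Rspo2, Bmp4 and Bmp6 were higher and 0 lower: Rspo2, which encodes an R-spondin that amplifies Wnt signals, was at 258 CPM in members and 110 CPM in other cells of gof, and at 297 and 197 CPM in control. The ligand gene Bmp4 was at 72.8 and 39.6 CPM in gof, and at 51.3 and 27.6 CPM in control. Members with at least 2 tdTomato UMIs, 64 in gof and 185 in control, were deep cells (median 17170.5 and 18009 UMIs). In control they held 4595 of 8117 Ttr UMIs, 1562 of 2735 Trpm3 UMIs and 2028 of 4829 Rspo2 UMIs. In gof they held 821 of 2359 Ttr UMIs, 240 of 749 Trpm3 UMIs and 394 of 1625 Rspo2 UMIs. None of 9 canonical Wnt targets was called in both libraries between members and all other kept cells.

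The largest ratios among the remaining called genes belonged to Sulf1, Glis3, Pdzd2, Lhx5, Pmaip1, Prdm16 and Eya4. Sulf1, a secreted sulfatase that edits heparan sulfate, was at 384 CPM in members and 93.1 CPM in other cells of gof, and at 293 and 115 CPM in control. Glis3, a zinc-finger factor, was at 91.0 and 21.9 CPM in gof, and at 105 and 26.9 CPM in control. Lhx5, a LIM homeobox gene of forebrain and of Cajal-Retzius neurons, was at 58.1 and 19.3 CPM in gof, and at 52.1 and 16.5 CPM in control. Pmaip1, the apoptosis gene Noxa, was at 60.4 and 23.6 CPM in gof, and at 79.7 and 20.5 CPM in control.

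**Figure D2:**
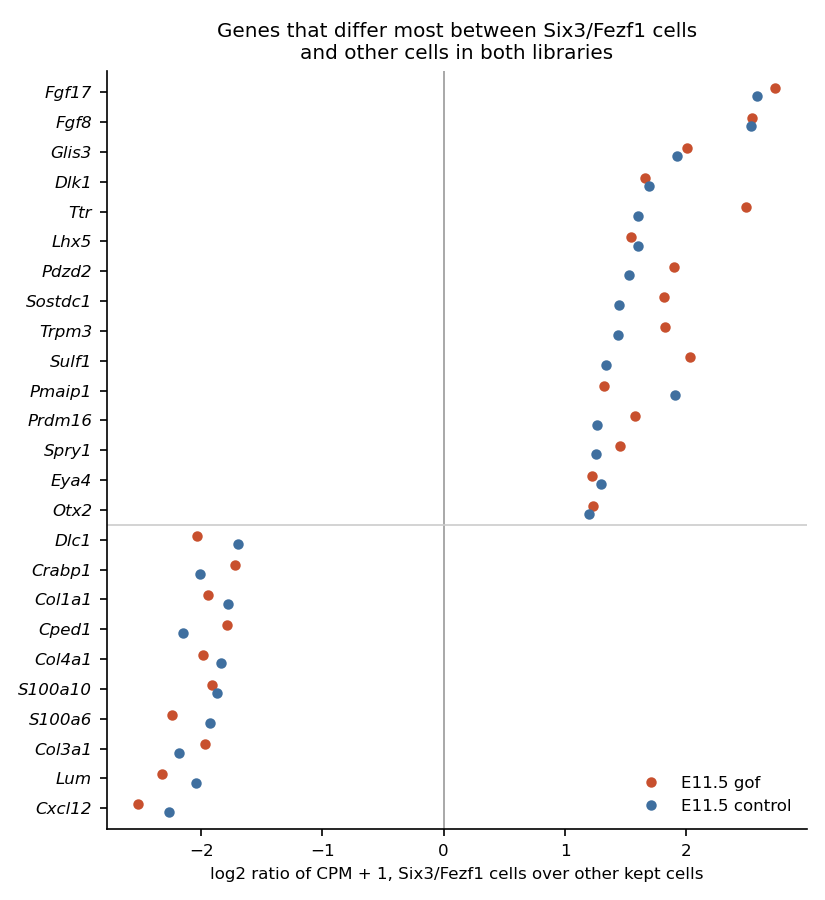
Log2 ratio of CPM + 1 of members over other kept cells in the gof and control libraries, for the 15 highest and 10 lowest genes called in both libraries. Fgf17, Fgf8 and Ttr are among the highest in both libraries, and connective tissue genes such as Cxcl12, Lum and Col3a1 among the lowest.

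The lowest genes in members were those of connective tissue. Col3a1, a fibrillar collagen gene, was at 97.9 CPM in members and 385 CPM in other cells of gof, and at 29.3 and 137 CPM in control, and Cxcl12, a chemokine gene of meninges and vessels, at 10.6 and 65.5 CPM in gof and 5.59 and 30.6 CPM in control. Of 6 mesenchymal genes 5 were lower, and of 8 erythroid genes all 8 were lower. Summed over the whole lists, mesenchymal genes came to 314 CPM in gof against 153 CPM in control members, endothelial genes to 16.7 and 26.5 CPM, macrophage genes to 11.7 and 19.98 CPM and pericyte genes to 6.98 and 4.61 CPM. Of the pericyte markers, Kcnj8 had no UMI in members of either library and Rgs5 none in control members. Erythroid genes came to 10227 CPM in gof against 8738 CPM in control members, where other cells had 41986 and 28477 CPM.

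Against other cells with few UMIs of those lists and at most 5% haemoglobin, chosen after seeing the data, 131 of 5673 genes (2.31%) were higher and 63 (1.11%) lower. The members themselves were not filtered this way, so the 7 erythroid and 3 mesenchymal genes among the higher ones were set by the choice of cells. Further, 6 of 8 tested neurogenic genes and 4 of 9 pan-neuronal genes, Tubb3, Dcx, Stmn2 and Elavl4, were lower in members of both libraries, and none was higher. Of 9 hem genes tested against the same filtered cells, Bmp4, Bmp6 and Msx1 were higher and 0 lower. Rspo2 was not called in both libraries there. Of 9 canonical Wnt targets Apcdd1 was lower and 0 were higher. Against all other cells, 3 of 7 neurogenic genes were lower, Neurog2, Gadd45g and Nhlh1. Cycling genes were not called: 0 of 18 S phase genes and 0 of 20 G2 and M phase genes were higher or lower. At least 1 UMI of Mki67 or Top2a, after thinning, was found in 55.5% of gof members and 60.5% of control members, and in 43.3% and 43.8% of other cells. Unthinned, at least 3 UMIs were found in 48.2% of gof and 64.2% of control members, and in 30.05% and 40.4% of other cells.

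Levels of the FGF ligands were higher in cells with more Six3 and Fezf1 UMIs, including below the limit of the rule. Over classes of 0, 1, 2, 3 or 4, and 5 or more UMIs, Fgf17 was at 22.8, 105, 211, 224 and 322 CPM in gof, and at 25.4, 129, 199, 258 and 408 CPM in control. Fgf8 was at 12.4, 60.0, 86.9, 111 and 215 CPM in gof, and at 11.53, 53.9, 87.2, 94.9 and 199 CPM in control. Lhx2 was lower at the high end, at 208, 146, 110, 75.2 and 61.0 CPM in gof, while in control it was at 337, 189, 202, 141 and 119 CPM. Otx2 was at 66.7, 159, 180, 190 and 206 CPM in gof, and at 58.3, 137, 156, 171 and 183 CPM in control. Depth rose over the same classes, with medians of 5722, 6042.5, 6929.5, 8940 and 16450 UMIs in gof and 8105, 8340, 9545, 10398 and 15445 in control. CPM divides depth out, but a deeper cell is more likely to enter a higher class, and the part of depth in these gradients was not tested.

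Members that held Fezf1 without Six3 carried more neuronal RNA. Stmn2, a microtubule-binding protein of growing neurons, was at 548 CPM in the 57 gof and 505 CPM in the 43 control members with Fezf1 alone. In members with Six3 alone it was at 130 and 87.1 CPM, and in members with both genes at 180 and 87.3 CPM. Tubb3, a neuronal tubulin, was at 477 CPM in gof against 555 CPM in control members with Fezf1 alone, and at 96.0 and 105 CPM in members with Six3 alone. Trp73, a Cajal-Retzius gene, was at 43.8 and 70.3 CPM with Fezf1 alone. Fgf17 was at 124 CPM in gof against 63.7 CPM in control members with Fezf1 alone, at 228 and 265 CPM with Six3 alone, and at 255 and 291 CPM with both. Over all members, at least 2 Trp73 UMIs were found in 2.12% of gof and 3.37% of control cells.

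Members overlapped in part with other cell groups picked by marker pairs. At least 2 UMIs of Fgf8 and Fgf17 were found in 231 gof members (37.6%, 33.8 to 41.6) and 562 control members (48.5%, 45.6 to 51.5), against 6.32% and 9.29% of other cells. Thinned to 3000 UMIs, at least 1 such UMI was in 36.4% (32.5 to 40.4) of gof and 41.0% (38.2 to 43.9) of control members, and in 7.98% and 9.44% of other cells. The same cells were 34.4% of the 672 gof and 51.0% of the 1101 control cells with Fgf8 or Fgf17. Members were 20.7% of the gof and 24.2% of the control cells with at least 2 UMIs of the hem genes Lmx1a and Wnt3a, which were deep cells (median 11949 UMIs in gof and 14578 in control). After thinning, at least 1 UMI of Lmx1a and Wnt3a was in 11.97% (9.47 to 14.9) of members and 6.56% (5.96 to 7.20) of other cells in gof, but in 10.8% (9.06 to 12.7) and 10.2% (9.44 to 11.02) in control, where the intervals overlapped. Members were 3.07% of gof and 9.13% of control cells with at least 2 UMIs of the diencephalic genes Olig3 and Barhl2 (median 7182 and 10079 UMIs), below their share of all kept barcodes in both libraries. Other diencephalic genes went the other way. Of 3 tested genes of that list, Lhx5 and Otx2 were higher and 0 lower in members than in other kept cells of both libraries. The list median was a log2 ratio of 1.23 in gof and 1.20 in control.

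The Fgf8 and Fgf17 UMIs divided the members into cells with different profiles. Between members with at least 2 such UMIs (median 8993 UMIs in gof and 10763 in control) and those under 2 (7177 and 10305), 73 of 5779 genes (1.26%) were higher and 66 (1.14%) lower in both libraries. Fgf8 and Fgf17 made this division and are left out. Pmaip1 was at 123 CPM with and 14.3 CPM under the limit in gof, and at 140 and 16.6 CPM in control. Pax3, a paired-box factor of dorsal neural progenitors, was at 54.0 and 8.80 CPM in gof, and at 34.1 and 5.04 CPM in control. Fgf18, another ligand of the subfamily, was at 29.2 and 3.57 CPM in gof, and at 38.9 and 2.65 CPM in control. Of the FGF list, Fgf18, Spry1, Spry2, Etv4 and Il17rd were higher and 0 lower among 18 genes in the files.

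Further genes followed the FGF ligands in both libraries. Cldn3, a tight-junction claudin, was at 31.1 CPM with and 7.97 CPM under the limit in gof, and at 32.6 and 3.53 CPM in control. Cthrc1, a secreted matrix protein, was at 100 and 28.0 CPM in gof, and at 78.5 and 19.3 CPM in control. Sp8, a zinc-finger factor of the rostral telencephalon, was at 70.5 and 36.8 CPM in gof, and at 84.2 and 27.4 CPM in control. Fbxw4, an F-box gene, was at 77.2 and 16.5 CPM in gof, and at 58.3 and 12.7 CPM in control. It lies on the same chromosome as Fgf8: on GRCm38 chromosome 19, Fbxw4 runs from 45578254 to 45660312 and Fgf8 from 45736798 to 45742915, both on the minus strand.

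Members with fewer than 2 Fgf8 and Fgf17 UMIs were higher in the nuclear receptor genes Nr2f1 and Nr2f2, the hem gene Rspo2 and several early neuronal genes. Nr2f1, a nuclear receptor that is graded against FGF signalling across the cortex, was at 57.3 CPM with and 241 CPM under the limit in gof, and at 81.7 and 228 CPM in control. Its relative Nr2f2 was at 169 and 386 CPM in gof, and at 170 and 452 CPM in control. The hem gene Rspo2 was at 160 and 330 CPM in gof, and at 171 and 429 CPM in control. Lhx1, a LIM homeobox gene of Cajal-Retzius neurons, was at 5.997 and 50.6 CPM in gof, and at 3.24 and 25.3 CPM in control, and Nhlh2, a bHLH gene of early neurons, at 10.9 and 50.9 CPM in gof and 7.20 and 27.5 CPM in control. Of 14 pan-neuronal genes in the files, Tubb3, Stmn2, Elavl4 and Ina were lower with the FGF ligands and 0 higher. Ttr was at 63.7 CPM with and 602 CPM under the limit in gof, and at 371 and 634 CPM in control, so most of its gof UMIs came from cells under the limit.

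**Figure D3:**
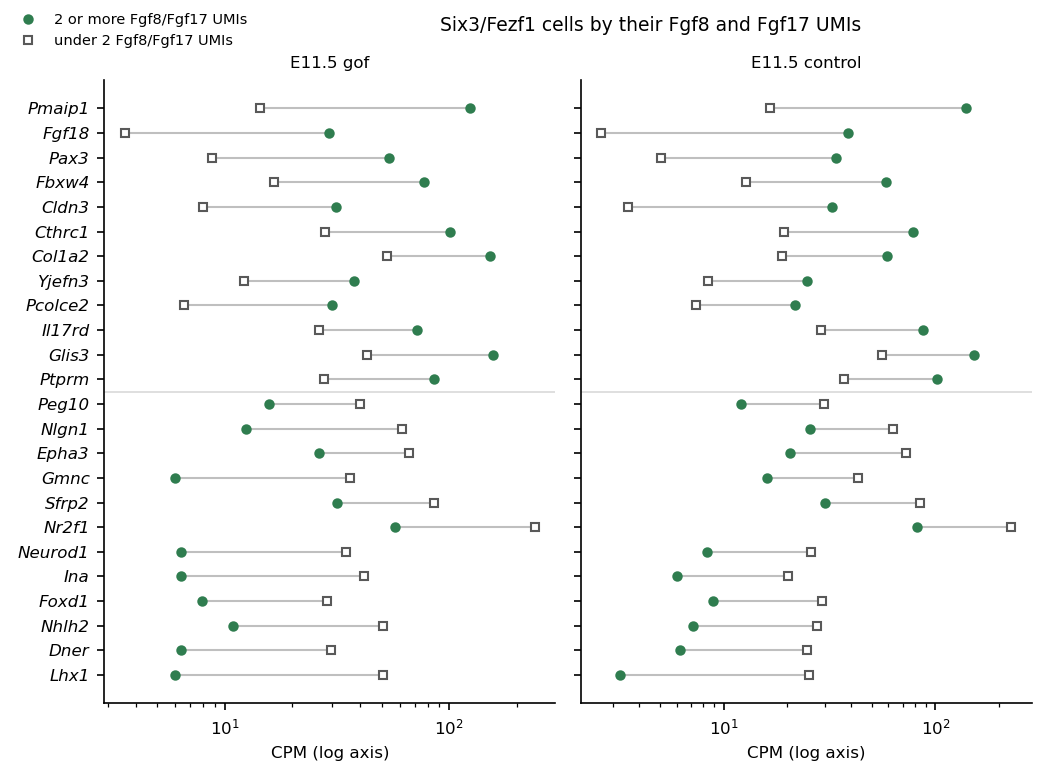
CPM in members with at least 2 summed UMIs of Fgf8 and Fgf17 and in members under 2, for the gof and control libraries, on a log axis. Pmaip1, Pax3 and Fgf18 are higher with the ligands and Lhx1, Nhlh2 and Nr2f1 lower, in both libraries.

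Between gof and control members, 187 of 6166 genes (3.03%) were called higher and 198 (3.21%) lower in gof. With median-of-ratios scaling in place of total UMIs, 285 were higher and 108 lower, so the balance of directions depended on the scaling. Over all genes the median log2 ratio was -0.09 in members and -0.14 in other cells, where 3.54% of 5959 genes were higher and 4.73% lower. Most of the largest ratios in members had a counterpart in other cells, and the values are given side by side. Osbpl7, an oxysterol-binding protein gene, was at 139 CPM (130 to 149) in gof against 29.4 CPM (26.9 to 32.2) in control members, and at 197 and 26.7 CPM in other cells. Peak1, a pseudokinase gene, was at 92.0 and 23.1 CPM in members, and at 81.0 and 20.8 CPM in other cells. Ankrd33b was at 53.5 and 12.4 CPM in members and 54.1 and 14.6 CPM in other cells, and Pdgfrl at 95.2 and 30.1 CPM in members and 118 and 38.2 CPM in other cells.

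The lowest ratio belonged to Hes5, a Notch target that keeps progenitors undifferentiated. It was at 57.4 CPM (51.7 to 63.6) in gof against 356 CPM (347 to 365) in control members, a log2 ratio of -2.61, and at 46.5 and 337 CPM in other cells. UMIs of Hes5 were in 185 of 614 gof and 896 of 1158 control members. Hes5 (ENSMUSG00000048001) lies on chromosome 4 from 154960923 to 154962371 on the plus strand and is protein-coding. The linker histone gene H1f5 was at 81.5 CPM in gof against 375 CPM in control members, and at 75.8 and 343 CPM in other cells. Hist1h2ap was at 37.6 and 135 CPM in members and 32.4 and 107 CPM in other cells. Id1, a BMP response gene that blocks bHLH factors, was at 117 and 261 CPM in members, and at 68.8 and 207 CPM in other cells. H1f4, Mpped2, Nckap5, Bach2, Iqgap2, Fbxo5, Prdm10 and Nrarp completed the lowest genes with log2 ratios from -1.13 to -0.95. For Bach2 the ratio turned to 0.12 in the cells that met the rule after thinning.

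**Figure D4:**
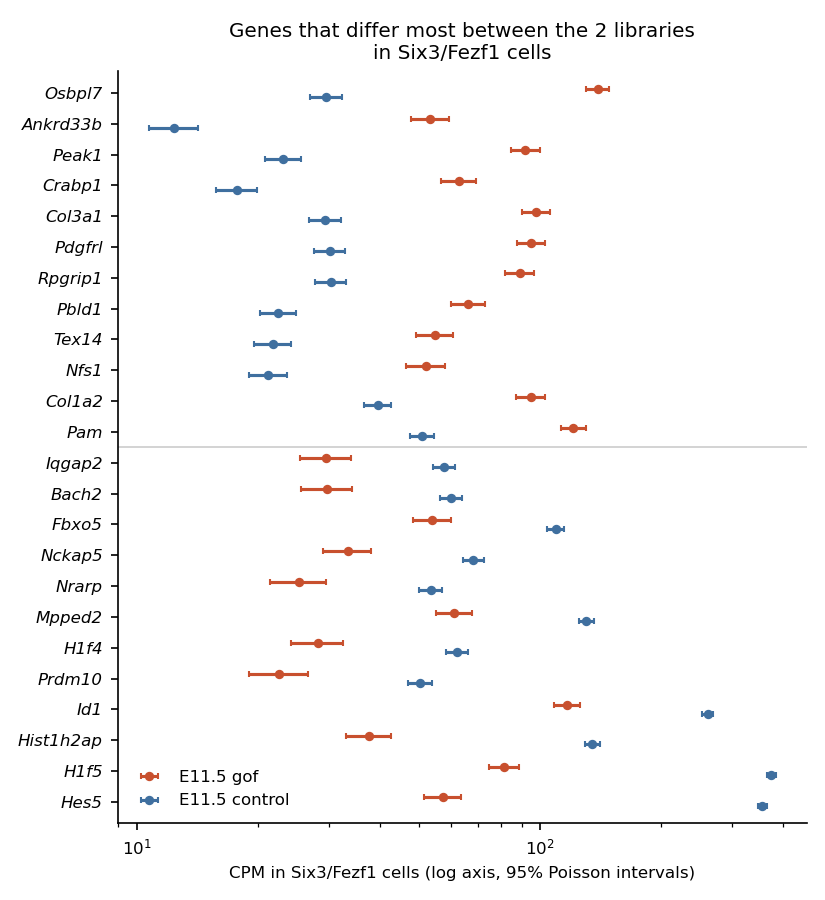
CPM of gof and control members with exact Poisson 95% intervals, on a log axis, for the 12 highest and 12 lowest genes of at least 50 CPM among those called between the libraries. Osbpl7 stands at 139 CPM in gof against 29.4 CPM in control, and Hes5 at 57.4 CPM in gof against 356 CPM in control.

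Over all members, 3 Notch genes and 3 BMP response genes were called lower in gof. Of 9 Notch genes Hes5, Hey1 and Nrarp were lower and 0 higher, with a list median of -0.39. Hey1, a Notch target, was at 17.9 CPM in gof against 37.1 CPM in control members, and Nrarp, a feedback inhibitor, at 25.2 and 53.6 CPM. Hey1 passed the 20 CPM floor in control alone, so it could only be called lower. Of 7 BMP response genes Id1, Id3 and Id4 were lower and 0 higher, with a median of -0.24, and Id3 was at 999.6 CPM in gof against 1741 CPM in control members. Among 14 neuroepithelial genes Sox9 (103 CPM in gof against 179 CPM in control) and Nes (75.3 and 126 CPM) were lower. Other cells had 3 of 10 Notch and 3 of 7 BMP genes lower, and no test of a difference between members and other cells was possible.

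Over all members the FGF ligands were not called between the libraries, while some FGF target genes were. Fgf8 was at 115 CPM in gof against 117 CPM in control members, Fgf17 at 233 and 271 CPM, and Fgf18 at 14.4 and 21.2 CPM. Spry2 was at 216 CPM (205 to 228) in gof against 94.1 CPM (89.4 to 98.9) in control members, Dusp6 at 55.5 and 30.1 CPM, and the ETS factor genes Etv1 at 51.1 and 33.2 CPM and Etv5 at 41.2 and 26.7 CPM. The feedback genes Spry1 (95.2 CPM in gof against 76.6 CPM in control) and Il17rd (45.5 and 58.7 CPM) were not called. Spry2, Dusp6, Etv1 and Etv5, 4 of 15 FGF genes, were called higher and 0 lower, with a median of 0.13. In other cells Spry2 and Dusp6 were at 126 and 33.2 CPM in gof, against 53.3 and 16.9 CPM in control. The picture depended on which members were taken: in the 191 gof and 284 control cells that met the rule after thinning, Fgf17 was at 332 CPM in gof against 591 CPM in control and Fgf8 at 190 and 286 CPM, while Spry2 was at 276 and 162 CPM. With the thinned counts of those cells, the log2 ratio of Etv5 turned to -0.08 and the list median to -0.17.

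Medial pallial genes were lower in gof members where called, 4 of 17 with a median of -0.37, against 8 of 17 and -0.57 in other cells. Emx1 was at 15.1 CPM (12.2 to 18.4) in gof against 34.5 CPM (31.7 to 37.5) in control members, Nfix at 18.4 and 33.5 CPM and Dmrt3 at 24.9 and 38.6 CPM. Emx1 and Nfix passed the 20 CPM floor in control alone, so they could only be called lower. Lhx2 was at 90.1 and 160 CPM, but its log2 ratio of -0.82 shrank to -0.21 without the deepest 5% of barcodes, to -0.20 as a mean over cells and to -0.04 after thinning. None of the rostral factors other than Lhx2 was called among 16, and their median was 0.01. Otx2 was at 188 CPM in gof against 168 CPM in control members, Zic4 at 262 and 200 CPM, and Zic1 at 410 and 337 CPM. No hem gene of 10 and no choroid plexus gene of 6 was called, with medians of 0.00 and 0.09. In other cells 4 of 11 hem genes and 2 of 3 choroid plexus genes were lower in gof.

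Some early neuronal genes were higher in gof members. Stmn2 was at 179 CPM in gof against 98.9 CPM in control members, Ina, a neurofilament gene, at 26.6 and 12.9 CPM, and Dcx, a microtubule protein of migrating neurons, at 21.4 and 12.7 CPM. These 3 of 9 pan-neuronal genes were higher and 0 lower, with a median of 0.19. Of 5 Cajal-Retzius genes Lhx1 (31.7 CPM in gof against 14.02 CPM in control) and Nhlh2 (33.9 and 17.1 CPM) were higher and 0 lower. Ina, Dcx, Lhx1 and Nhlh2 passed the 20 CPM floor in gof alone, so they could only be called higher. Of 7 neurogenic genes Insm1 and Gadd45g were higher and 0 lower. The log2 ratio of Stmn2, 0.85 over all members, was 0.12 and that of Lhx1, 1.12 over all members, was 0.15 in the thinned set. Under a filter of 2000 genes and 5% mitochondrial UMIs the medians of the pan-neuronal and neurogenic lists turned to -0.17 and -0.36. Gof members held more cells with Fezf1 alone, the members with the most neuronal RNA, and the part of this difference in the ratios was not tested.

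Mesenchymal genes were called higher in gof members, 3 of 5, as they were in other cells, 6 of 7. Col3a1 was at 97.9 CPM in gof against 29.3 CPM in control members, Col1a2 at 94.8 and 39.5 CPM and Col1a1 at 41.6 and 21.3 CPM. They rested on few cells, since 66 gof and 115 control members held a Col3a1 UMI. With the highest doublet scores removed, the log2 ratio of Col3a1 was 0.17 and that of Col1a1 turned to -0.55, and the calcium-binding S100 genes S100a6 and S100a10 turned to -0.11 and -0.09. Crabp1, a retinoic acid binding protein gene, was at 62.8 CPM in gof against 17.7 CPM in control members, and at 209 and 74.4 CPM in other cells. Of 7 erythroid genes Hbb-bs was lower in gof members, at 266 CPM in gof against 444 CPM in control. Its log2 ratio of -0.74 turned to 0.01 in cells with at least 1 UMI of the rule, 2.03 after thinning and 0.69 without members that held UMIs of other lists.

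A few genes had ratios that differed in size or sign between members and other cells, and these differences were not tested. Mt1, a metallothionein gene, was at 33.6 CPM in gof against 60.4 CPM in control members, but at 200 and 144 CPM in other cells. Chrm2, a muscarinic receptor gene, was at 23.5 and 1.60 CPM in members and 5.22 and 1.69 CPM in other cells, and 57 of its 148 gof UMIs came from 1 cell.

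Canonical Wnt targets were not called in members taken as a whole. Axin2, a feedback inhibitor of the beta-catenin destruction complex, was at 86.6 CPM in gof against 77.1 CPM in control members, Sp5, a zinc-finger target gene, at 82.6 and 59.1 CPM, and Lef1, a factor that binds beta-catenin on DNA, at 73.8 and 71.5 CPM. Of 9 targets 0 were higher and 0 lower, with a median of 0.04. Notum, an enzyme that inactivates Wnt proteins, was at 13.5 CPM in gof against 2.27 CPM in control members, and Wif1, a secreted Wnt inhibitor, at 14.6 and 3.87 CPM, both below the 20 CPM floor. Lmx1a, whose gene drives the Cre, was at 36.6 CPM in gof against 36.5 CPM in control members.

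Calls of Wnt targets differed between members with at least 2 tdTomato UMIs and members under 2. At least 2 tdTomato UMIs were found in 64 of 614 gof members (10.4%) and 185 of 1158 control members (16.0%), and in 3.97% and 7.82% of other cells, but in 0 of 180 gof and 0 of 144 control erythroid barcodes (which allows up to 1.67% and 2.08%). The tdTomato level was 48.1 CPM in gof against 46.5 CPM in control members, and after thinning at least 1 UMI was in 10.96% and 9.76% of members, so no order of the libraries is read from these shares. Other cells had 7.02% (6.40 to 7.67) in gof after thinning, below the members (8.56 to 13.8). In control they had 8.41% (7.70 to 9.16), and the interval of the members (8.10 to 11.6) overlapped theirs. Among members with at least 2 tdTomato UMIs, 257 of 6552 genes (3.92%) were higher and 320 (4.88%) lower in gof, and of 11 Wnt targets 8 were higher and 0 lower, with a median of 0.80. Axin2 was at 177 CPM (154 to 202) in gof against 115 CPM (105 to 126) in control, Sp5 at 188 (165 to 215) and 89.8 (80.7 to 99.5), and Lef1 at 116 (97.5 to 137) and 73.6 (65.4 to 82.5). Notum was at 43.7 CPM (32.7 to 57.4), in 19 of 64 cells, in gof and at 0.995 CPM (0.271 to 2.55), in 4 of 185 cells, in control. Wif1 was at 45.4 and 4.23 CPM, Nkd1, which inhibits Dishevelled, at 114 and 39.5 CPM, Apcdd1 at 74.0 and 26.9 CPM, and Tnfrsf19 at 85.0 and 48.5 CPM. Notum and Wif1 passed the 20 CPM floor in gof alone, so they could only be called higher. The count of 8 and the median include them.

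Members under 2 tdTomato UMIs, 550 in gof and 973 in control, had 7 of 8 tested targets uncalled. Axin2 was at 65.7 CPM in gof against 64.5 CPM in control, Sp5 at 58.1 and 49.0 CPM, Lef1 at 63.9 and 70.8 CPM and Nkd1 at 27.6 and 31.6 CPM. Of these targets 0 were higher and 1 was lower, Znrf3, at 37.5 CPM in gof against 62.3 CPM in control, with a median of -0.17, where 3.61% of 6124 genes were called in each direction. Notum was at 6.45 CPM in gof against 2.70 CPM in control, below the floor. Non-member cells with at least 2 tdTomato UMIs, 277 in gof and 454 in control, had Axin2 at 173 and 114 CPM, Sp5 at 261 and 91.1 CPM, Lef1 at 185 and 89.8 CPM and Notum at 70.7 and 0.807 CPM. The difference between members and other cells, and that between cells with at least 2 and under 2 tdTomato UMIs, was not tested. At least 1 tdTomato UMI was in 24.3% of all gof and 29.3% of all control members, so the members under 2 included cells with 1. Depth differed little between libraries in members with at least 2 tdTomato UMIs (median 17170.5 UMIs in gof and 18009 in control) and more in members under 2 (7206 and 9731).

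The promoters of Axin2 and Sp5 are shown because both targets were called higher in the gof tdTomato members, Axin2 with the smallest and Sp5 with a larger ratio, and because they differ in the TCF/LEF core motif CTTTGA, to which the partners of beta-catenin bind. They are the 250 bases before the start of each gene, from RefSeq on GRCm38.p6, at chr11:108920099-108920348 and chr2:70474673-70474922, both on the plus strand, with CTTTGA or its reverse complement TCAAAG in capitals.
Axin2: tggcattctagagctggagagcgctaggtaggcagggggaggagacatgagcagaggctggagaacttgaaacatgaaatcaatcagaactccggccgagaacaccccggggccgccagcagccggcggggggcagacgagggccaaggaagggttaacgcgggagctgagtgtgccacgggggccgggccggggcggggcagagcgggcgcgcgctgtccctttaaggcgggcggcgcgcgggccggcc
Sp5: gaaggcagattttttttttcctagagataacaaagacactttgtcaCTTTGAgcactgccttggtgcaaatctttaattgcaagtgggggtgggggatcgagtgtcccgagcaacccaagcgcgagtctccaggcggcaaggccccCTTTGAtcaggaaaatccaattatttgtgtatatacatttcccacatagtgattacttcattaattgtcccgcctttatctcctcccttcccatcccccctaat
Sp5 held 2 matches that do not overlap, at positions 47 and 147 from the 5' end of the window, and Axin2 held 0. One or both spellings occurred in 13.8% of 32851 promoter windows of the same length. A match is a run of letters and not a shown binding site, and the absence of one says only that these letters are not in this window.

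**Figure D5:**
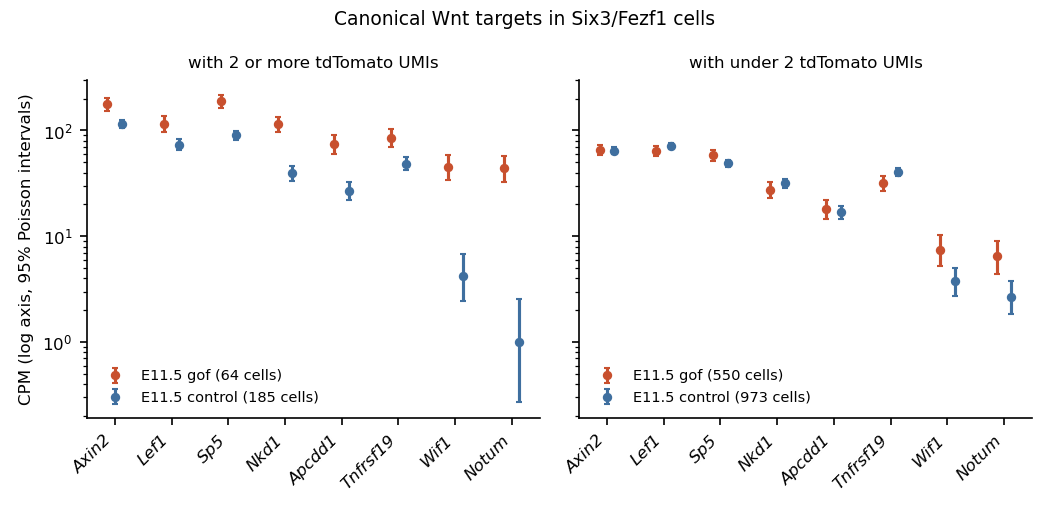
CPM of canonical Wnt targets in gof and control cells with exact Poisson 95% intervals, on a log axis, for members with at least 2 tdTomato UMIs (left) and members under 2 (right). In the members with at least 2 tdTomato UMIs Axin2 is at 177 CPM in gof against 115 CPM in control, and in the members under 2 at 65.7 and 64.5 CPM.

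Other gene groups also differed between gof and control among the tdTomato members. The FGF ligands were called there: Fgf8 was at 136 CPM (116 to 159) in gof against 65.6 CPM (58.0 to 74.1) in control, and Fgf17 at 202 (177 to 229) and 125 CPM (114 to 136). With Spry2 (191 and 81.8 CPM), Dusp6 (53.8 and 30.3 CPM) and Etv5 (40.4 and 22.4 CPM), 5 of 14 FGF genes were higher and 0 lower, with a median of 0.41. Of 8 Notch genes 4 were lower, Hes5 (55.5 and 292 CPM), Hey1, Nrarp and Notch1. Of 16 medial pallial genes 5 were lower and 0 higher, among them Lhx2 at 48.8 CPM in gof against 156 CPM in control and Emx2, a homeobox gene of the medial cortex, at 74.0 and 122 CPM. Bmp4 was higher, at 147 and 87.3 CPM, and Rspo2 lower, at 331 and 504 CPM. Trpm3 and Ttr were lower, at 202 and 388 CPM and at 691 and 1142 CPM, and 1 cell held 51.4% of the gof Ttr UMIs. Of 7 erythroid genes 6 were lower in these gof cells. The gof values rest on 64 cells, so a single deep cell can weigh on them.

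Members under 2 tdTomato UMIs gave other calls in several lists. The hem genes Msx1, which is also a BMP response gene, and Wnt9a were higher in gof there: Msx1 was at 95.2 CPM in gof against 58.6 CPM in control, and Wnt9a at 40.9 and 23.5 CPM. In members with at least 2 tdTomato UMIs they were at 145 and 153 CPM and at 84.97 and 64.1 CPM, and neither was called. Foxj1, a regulator of motile cilia in the choroid plexus list, was higher in gof under 2 tdTomato UMIs, at 22.1 CPM in gof against 13.97 CPM in control. It passed the 20 CPM floor in gof alone, so it could only be called higher. Of the FGF list Spry2, Dusp6 and Etv1 were higher and Fgf18 lower. Hes5, Hey1 and Nrarp, and Id1 and Id3, were lower in gof in these members too. Of 7 erythroid genes 3 were higher in gof under 2 tdTomato UMIs, and of 5 mesenchymal genes 4. Differences between the subsets were not tested.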

How the data were processed

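Single-cell libraries were made with the 10x Chromium 3' v3.1 kit, per the labels. For each library the authors deposited a matrix of UMI counts by gene and barcode. Cell Ranger 7.1.0 and the build mm10 are named in the submitters' processing notes, and the gene annotation behind the counts was not given in the sources used here. There were 21937 features, tdTomato among them, and no barcode under 500 UMIs, so they had been filtered before deposit. Groups came from the labels. The members, gene lists and subsets were chosen with earlier results of these data known.

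Analysis used Python 3.11.15, numpy 2.4.6, scipy 1.17.1, pandas 2.3.3, scanpy 1.11.5 and matplotlib 3.10.9. UMIs were summed over the cells of a group, scaled to CPM and compared at 1.5-fold of CPM + 1 with separate exact Poisson 95% intervals and a floor of 20 CPM. On libraries simulated at the real sizes this rule was tested on known folds. The simulation drew Poisson counts for each gene from a pooled profile, without variation between cells or pools. It therefore cannot give the rate of false calls in the real libraries. Cells were not clustered, and ambient RNA was not removed. Scrublet's own threshold called 2 gof and 2 control doublets and so did not work; an alternative removed the highest scores at 0.8% per 1000 barcodes. For thinned values each barcode was drawn down to 3000 UMIs and shallower barcodes were left out. Alternatives changed the rule, the cell filters, the scaling, the pseudocount, the floor and the fold.

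Named genes were the 12 highest and 12 lowest gof over control ratios among called genes of at least 50 CPM, the 15 highest and 10 lowest of members over other cells by the smaller of the 2 ratios, the 2 highest and 2 lowest of each list, the full rostral, FGF and Wnt target lists, and preset genes, some of which are not reported here. The ranked parts left out clone-named and Y-linked genes and those of haemoglobins, ribosomes and mitochondria. Genes named from the subsets, the UMI classes and the differences between members and other cells were picked after their values were seen.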

Additional observations from a re-analysis of the deposited data

Results flagged for a closer look

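At E14.5 the libraries stood in the opposite order. The rule for Six3/Fezf1 cells was met by 205 of 5572 kept gof barcodes (3.68%, 3.20 to 4.21) and 116 of 7069 control barcodes (1.64%, 1.36 to 1.96), a log2 ratio of 1.16, where the ratio at E11.5 was -1.04. The difference between the ages was not tested. The E14.5 cells were not the same kind in both libraries: at least 2 tdTomato UMIs were in 94.1% of gof and 83.6% of control cells, and at least 2 Fgf8 and Fgf17 UMIs in 50.7% and 15.5%. Fgf17 was at 264 CPM in gof against 29.0 CPM in control cells, and the Wnt feedback gene Nkd1 at 766 and 70.8 CPM. Notum stood at 378 CPM in gof against 1.14 CPM in control cells. Choroid plexus Ttr was at 9040 and 67192 CPM and Lmx1a at 86.2 and 351 CPM. Fezf1 was read in 65 of the gof and 12 of the control cells, so Six3 decided most of the calls.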

How the results depend on the processing

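No paired analysis was possible because each group was 1 library, and for the same reason no replicate could be left out. The share of members kept its direction: the log2 ratio was -0.64 with at least 1 UMI, -1.38 with at least 3, -0.68 under a filter of 2000 genes and 5% mitochondrial UMIs, -0.59 after thinning, -0.41 among thinned neural barcodes and -0.84 between 5000 and 10000 UMIs. Counts of genes higher and lower in gof members were 285 and 108 with median-of-ratios scaling, 70 and 101 with a floor of 50 CPM, 755 and 359 without a floor and 53 and 22 at 2-fold; 130 were lower with a pseudocount of 5 CPM. Among members with Fgf8 or Fgf17, 328 were lower, among those under 2 such UMIs 281 were higher, and among those with tdTomato 320 were lower. Counts higher and lower in members than in other cells were 56 and 37 with the floor of 50 CPM, 323 and 421 without a floor and 37 and 40 at 2-fold, and 53 were lower with the stricter cell filter. Of the named genes, 8 ratios reversed: Hbb-bs (0.0061 with at least 1 UMI, 2.03 after thinning, 0.69 without members that held UMIs of other lists), Bach2 (0.12 after thinning), Etv5 (-0.084 after thinning), and S100a6 (-0.11), S100a10 (-0.0945) and Col1a1 (-0.55) without the highest doublet scores. The other named gene ratios gave 1433 values near the main one and 289 that moved. The causes were not tested. Depth limits the rule itself: more than 4 in 10 members in both libraries rest on exactly 2 UMIs.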
